A study of Equus caballus with 34 samples.

Results

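The 10 genes described here are markers of smooth muscle and of pericytes, the contractile cells that wrap small blood vessels. They were followed through the 2 layers of the horse's dominant ovarian follicle: the granulosa cells (GC) that line the antrum, and the theca wall (TW) that surrounds them. Every non-control probe for ACTA2, ACTG2, MYH11, CNN1, TAGLN, DES, KCNMB1, MCAM, RGS5 and PDGFRB was taken, by its gene name or by the protein name in its description, which gave 19 of the 43603 probes on the array. The 6 groups were GC and TW, each at ED (early dominance), LD (late dominance) and PO (just before ovulation, called preovulatory), with 5 arrays in each group except TW LD, which had 9, for 34 arrays in all. The breed, age and any treatment of the mares were not given in the sources used here. The design text calls the samples biological replicates, and arrays are numbered here within each group in accession order.

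Smooth muscle cells contract when calcium and calmodulin activate myosin light chain kinase and myosin pulls on actin filaments. ACTA2 and ACTG2 encode the smooth muscle alpha and gamma actins, MYH11 the smooth muscle myosin heavy chain, and CNN1 (calponin) and TAGLN (transgelin) encode actin-binding proteins of the same filaments. DES encodes desmin, the muscle intermediate filament, and KCNMB1 the regulatory beta subunit of the calcium-activated potassium channel that relaxes vascular muscle. MCAM (CD146), RGS5, a regulator of G-protein signalling, and PDGFRB, the receptor through which platelet-derived growth factor recruits mural cells, are widely used as pericyte markers. MCAM is also made by endothelial cells, PDGFRB by fibroblasts, and ACTA2 and TAGLN by other stromal cells under tension. In the follicle wall the vessels and the contractile cells lie in the theca, and the granulosa layer has no vessels of its own before ovulation.

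The probes decide what was measured, so those that could be shown are given first, 5′ to 3′. Each is a 60-base probe, and the coordinates are those of the deposited files (genome build not given in the sources used here). TAGLN lay at chr7:21880887-21881238 (plus strand), DES at chr6:8935739-8936002 (plus) and MYH11 at chr13:12217726-12218090 (plus), and each of these spans more genome than the 60 bases of its probe, so the probe joins separate stretches. CNN1 lay on unplaced sequence, chrUn:144238174-144240261 (minus), and also spans more than 60 bases. KCNMB1 lay at chr14:9942713-9942772 (plus) and PDGFRB at chr14:27127233-27127292 (plus). In these 6 probes the capitals mark the longest run of bases, on either strand, that a probe of any other name on the array also holds, which was 13 to 16 bases.
CNN1: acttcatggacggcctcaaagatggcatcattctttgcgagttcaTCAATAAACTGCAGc
TAGLN: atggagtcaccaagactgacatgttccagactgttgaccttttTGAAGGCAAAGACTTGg
DES: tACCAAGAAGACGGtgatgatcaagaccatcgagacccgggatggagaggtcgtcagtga
MYH11: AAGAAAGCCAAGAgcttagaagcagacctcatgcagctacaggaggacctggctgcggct
KCNMB1: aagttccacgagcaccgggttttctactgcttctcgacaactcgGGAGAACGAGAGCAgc
PDGFRB: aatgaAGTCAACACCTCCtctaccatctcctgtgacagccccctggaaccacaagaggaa

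The pericyte genes MCAM and RGS5 had several probes that overlap, so their probes are not independent measurements. MCAM had 5, each starting 1 base after the last, from chr7:23628205-23628264 to chr7:23628209-23628268 (minus strand), and the 56 bases in capitals are in all 5. RGS5 had 2 on unplaced sequence, chrUn:162515062-162515121 and chrUn:162515095-162515154 (minus), which share the 27 bases in capitals. The second of these also shares a run of 19 bases with a probe for RGS4, the longest such run among the 19 probes.
MCAM: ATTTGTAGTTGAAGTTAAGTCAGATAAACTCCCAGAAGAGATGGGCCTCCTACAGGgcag
RGS5 first probe: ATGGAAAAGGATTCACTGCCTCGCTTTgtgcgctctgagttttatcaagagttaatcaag
RGS5 second probe: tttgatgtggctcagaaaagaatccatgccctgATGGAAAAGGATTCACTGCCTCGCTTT

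ACTA2 had 1 probe, at chr1:38701660-38701719 (plus), and ACTG2 had 5 on chromosome 15, starting 1 base apart from 25673053 to 25673057. The deposited files name both genes by symbol but describe both as a cardiac alpha actin fragment. Below, each gene with several probes is represented by the probe with the highest mean over the 34 arrays, and the other probes are given where they differ. Levels are log2 of the processed signal minus the array's 75th percentile of it, so 0 is the level that 75% of the spots on an array do not exceed. A level compares 1 gene between samples and not different genes with each other.

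Between 64.3% and 82.5% of spots were well above background on an array. By the barcodes in the names of the deposited scans, the arrays sat on 10 slides. Only 2 of these, each with all GC stages and 1 TW LD array, held both layers, so layer and slide are largely bound together. The design text places each group on each slide, which the barcodes do not show. A single slide, which held TW PO 4, TW ED 4, TW LD 7 and TW LD 6, carried 1285 to 1718 spots flagged as outliers on each array, against 69 to 593 elsewhere. On it the ACTA2 spot of TW LD 7 and the representative ACTG2 spot of TW LD 6 were flagged and left out, so these 2 genes have 8 TW LD values. Granulosa markers stood higher in GC at ED (11 of 12 called, 14.4% of all probes) and theca stroma markers lower (12 of 12, 21% of all probes), so the layers match their labels at that stage. At LD the counts were 10 and 12 of 12 (12.2% and 19.8% of all probes). At PO they were 6 and 10 of 12 (21.4% and 28.2%).

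**Figure D1:**
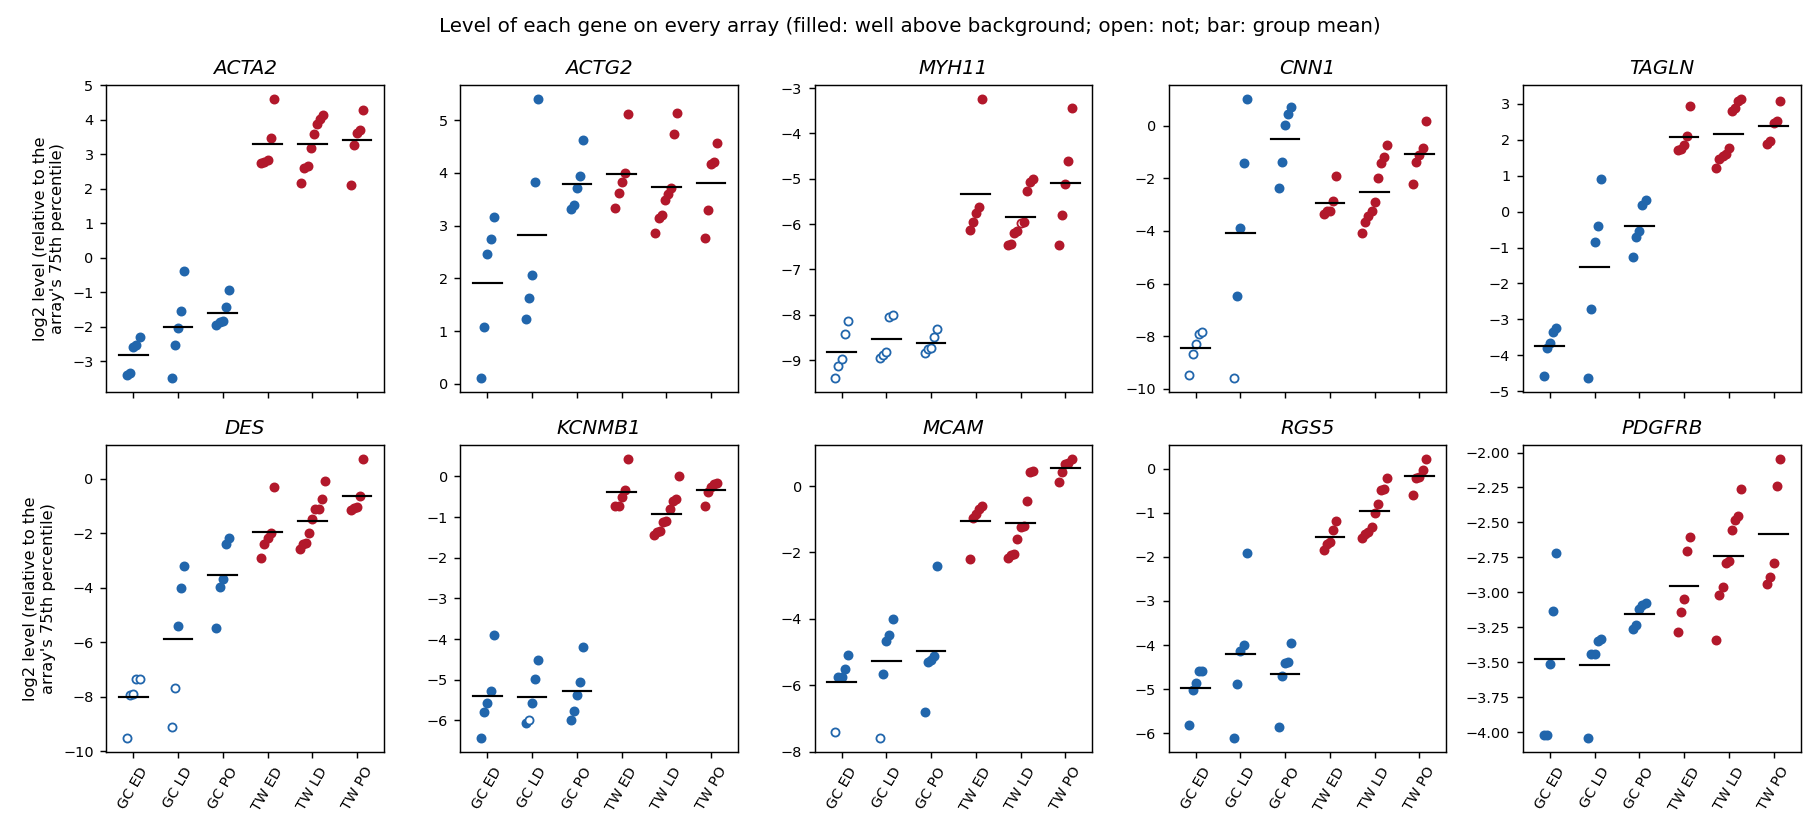
Log2 level of each of the 10 genes on every array (relative to the array's 75th percentile), by group, with GC in blue and TW in red. Open points are not well above background and bars are group means. MYH11 is open on all 15 GC arrays, CNN1 and DES are open on the 5 GC ED arrays, and for CNN1, TAGLN and DES the GC LD arrays are spread most widely.

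The first comparison asked how the 10 genes divide between the layers at each stage. At ED, 9 of the 10 genes were lower in GC than in TW, by limma's moderated test with Benjamini-Hochberg adjustment over all 36544 probes tested (adjusted p below 0.05). In probes this was 18 of 19, where 21% of all probes tested were called lower. At LD 13 of 19 probes, of 8 genes, were lower (19.8% of all probes), and at PO again 13 probes of 8 genes (28.2%). No member was called higher in GC at any stage (14.4%, 12.2% and 21.4% of all probes were), nor was any at an unadjusted p below 0.05. Every GC array lay below every TW array for 9, 7 and 8 of the 10 genes at ED, LD and PO, a separation seen for 18.8%, 7.71% and 18.9% of all probes. The median difference over the 10 genes was −4.93 at ED, −3.47 at LD and −3.23 at PO on the log2 scale, beside −0.06, −0.05 and −0.20 over all probes. In whole tissue and in bulk cell samples like these, fewer cells of a type and less RNA per cell cannot be told apart.

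ACTA2, the actin most often used to stain vascular muscle, had the largest fitted gap of the 10 genes at ED and LD. Its level was 3.29 ± 0.79 (SD, n = 5) in TW ED, 3.29 ± 0.74 (n = 8) in TW LD and 3.40 ± 0.81 (n = 5) in TW PO. In GC it was −2.82 ± 0.50, −1.99 ± 1.16 and −1.60 ± 0.42 (n = 5 each). The lowest TW array, at 2.11, stood above the highest GC array, at −0.37. The differences were −6.11 ± 0.47 (standard error) at ED, −5.28 ± 0.43 at LD and −4.996 ± 0.47 at PO, which is 69.1-fold, 38.8-fold and 31.9-fold lower (limma adjusted p = 4.34e-11, 9.6e-11 and 1.17e-09).

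KCNMB1, the potassium channel subunit, had a gap of similar size at each stage. GC levels ran from −6.44 to −3.90 over the 15 arrays, 14 of them well above background, and TW levels from −1.44 to 0.43. It was 32.5-fold, 22.6-fold and 30.7-fold lower in GC at ED, LD and PO (log2 difference −5.02 ± 0.38, −4.50 ± 0.33 and −4.94 ± 0.38; limma adjusted p = 1.71e-11, 1.09e-11 and 1.46e-11). MYH11, the myosin that defines differentiated smooth muscle, was not well above background on any GC array, and its TW levels were low as well, from −6.46 to −3.24. MYH11 in GC was therefore bounded only, at least 3.22-fold lower at ED, at least 1.83-fold at LD and at least 3.43-fold at PO (limma adjusted p = 5.05e-07, 4.08e-06 and 2.8e-07). Such bounds set the brighter group's mean against the lowest signal that was well above background on each of the dim arrays, or the probe's own signal there where that was higher. They are point values for the levels used here, with no allowance for error.

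For the filament proteins TAGLN, DES and CNN1 the gap was smaller at PO than at ED, a change that is tested further on. TAGLN was 55.4-fold lower in GC at ED, 13.0-fold at LD and 6.90-fold at PO (log2 difference −5.79 ± 0.61, −3.70 ± 0.54 and −2.79 ± 0.61; limma adjusted p = 9.16e-09, 2.54e-06 and 3.99e-04). DES in GC was at least 33.8-fold lower at ED, where none of the GC arrays was well above background, 20.2-fold lower at LD and 7.51-fold lower at PO (limma adjusted p = 3.33e-07, 1e-05 and 0.00287). CNN1 was at least 17.3-fold lower in GC at ED (adjusted p = 1.91e-04), but the difference did not pass at LD (−1.56 ± 0.98, adjusted p = 0.234) or at PO, where GC had the higher mean (0.57 ± 1.11, adjusted p = 0.692). ACTG2 was 4.21-fold lower in GC at ED (−2.07 ± 0.62, adjusted p = 0.00958) and did not pass at LD (−0.90 ± 0.56, adjusted p = 0.233) or PO (−0.01 ± 0.62, adjusted p = 0.994). The CNN1 call at LD depended on 1 array: without GC LD 3 its difference was −2.84 and its adjusted p 0.0111, and ACTG2 then passed too (−1.55, adjusted p = 0.0208).

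Of the pericyte genes, MCAM was 28.5-fold, 18.1-fold and 45.9-fold lower in GC at ED, LD and PO, and all 5 of its probes passed at each stage (representative probe, limma adjusted p = 5.79e-07, 8.24e-07 and 4.56e-08). RGS5 was 10.7-fold, 9.47-fold and 22.7-fold lower (adjusted p = 4.87e-07, 1.34e-07 and 2.8e-09). PDGFRB was the only gene of the 10 that was not called at ED. Its level lay between −4.04 and −2.72 on the GC arrays and between −3.34 and −2.05 on the TW arrays, so the layers overlapped over all stages, while at PO every GC array (highest −3.08) lay below every TW array (lowest −2.94). The difference was −0.52 ± 0.24 at ED (adjusted p = 0.0839), −0.78 ± 0.21 at LD (0.00386) and −0.58 ± 0.24 at PO (0.0424). With arrays centred on their median the PDGFRB difference at PO was 0.20 (adjusted p = 0.444), so its sign depends on the scaling.

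With slide as a block, the layer difference is left to the 2 slides that held both. At ED 10 of 19 probes were then called, against 18 without the block. More probes lost their call than the 5 of ACTG2, so probes of other genes did too. ACTG2 then missed the threshold at ED (−2.75 ± 1.14, adjusted p = 0.112), and at PO so did TAGLN (−2.89 ± 1.12, 0.0778), DES (−2.34 ± 1.43, 0.268) and PDGFRB (−0.47 ± 0.32, 0.312), while PDGFRB also missed it at LD (−0.66 ± 0.26, 0.102). Within those 2 slides all 10 genes were lower in GC LD than in TW LD on both. The within-slide difference was −4.71 and −4.39 for ACTA2, and between −4.23 and −3.73 for KCNMB1. For CNN1 it ran from −2.81 to −0.03. With a normexp background correction, whose offset raises dim signals, MYH11 was no longer called at any stage (0.16 ± 0.38 at ED, adjusted p = 0.766), and CNN1 was not called at ED (−0.99 ± 0.66, adjusted p = 0.269).

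**Figure D2:**
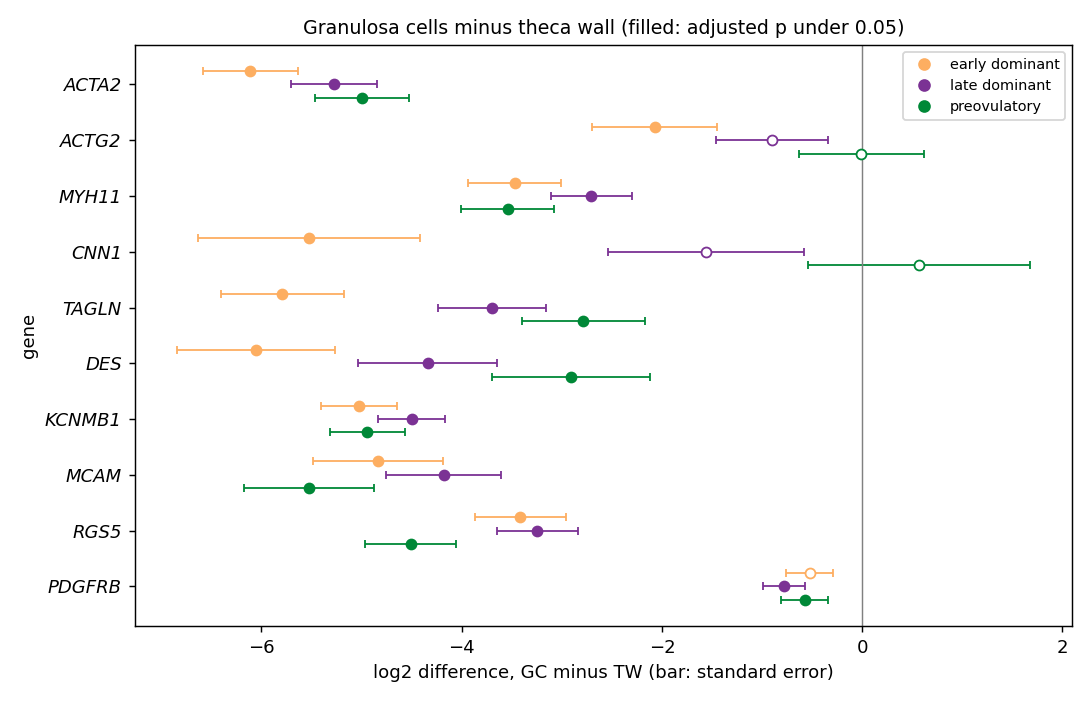
Log2 difference between GC and TW (GC minus TW) for each gene at the 3 stages, with the standard error of the fit. Filled points passed an adjusted p of 0.05. Most genes lie between −6.11 and −2.07, PDGFRB lies between −0.78 and −0.52, and at PO ACTG2 and CNN1 lie at −0.01 and 0.57.

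Within granulosa cells the question was what happens to these genes as the follicle moves from early dominance to the eve of ovulation. From ED to PO, CNN1, TAGLN, DES and ACTA2 rose. Of 19 member probes, 18 could be tested in GC and 5 were called higher (limma adjusted p below 0.05), where 23.5% of the 32594 probes tested were called higher, so the share of members called was close to that of all probes. None was called lower (21.4% of all probes were), nor was any lower at an unadjusted p below 0.05. Over the 9 genes tested the median change was 1.23, beside 0.09 over all probes. The 4 genes that passed, with ACTG2, were also the 5 of 9 in which every PO array stood above every ED array, a separation seen for 19.4% of all probes.

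CNN1 had the largest fitted change. The ED arrays lay at −8.29, −8.69, −9.47, −7.91 and −7.85, none of them well above background, and the PO arrays at −1.37, 0.02, 0.44, −2.35 and 0.70, all well above it. The TW PO range was −2.20 to 0.17, and GC PO 4 lay below it, GC PO 3 and GC PO 5 above it. The rise was at least 91.7-fold (limma adjusted p = 7.73e-04), and the fitted change of 7.93 ± 1.46 rests on ED values below detection. With the normexp correction the CNN1 change was 2.98 ± 0.77 (adjusted p = 0.00622), and it was 4.66 ± 0.92 (0.0012) when fitted to the authors' deposited values. Both are smaller than the bound, which is 6.52 on the log2 scale and applies only to the levels used here.

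TAGLN was measured on every GC array. At ED its levels were −3.35, −4.58, −3.80, −3.67 and −3.23, and at PO −1.26, 0.31, −0.72, 0.18 and −0.54. All PO arrays were above all ED arrays, and all stayed under the lowest TW array at any stage, 1.21. TAGLN rose 9.99-fold (3.32 ± 0.78, limma adjusted p = 0.00346).

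DES was at −7.94, −7.35, −7.89, −7.34 and −9.52 in GC ED, none well above background, and at −2.40, −5.48, −3.96, −2.16 and −3.67 in GC PO, all well above it. The groups did not overlap, and DES was well above background on 3 of the 5 GC LD arrays as well. The rise was at least 11.3-fold (limma adjusted p = 0.00239), and with the normexp correction it was 0.72 ± 0.39 on the log2 scale and did not pass (adjusted p = 0.176).

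ACTA2 was at −2.29, −2.53, −3.38, −2.57 and −3.33 in GC ED and at −1.84, −1.41, −1.95, −0.94 and −1.84 in GC PO. The groups did not overlap, and the rise was 2.34-fold (1.23 ± 0.46, limma adjusted p = 0.042). This call was lost when any 1 of 9 arrays was left out (GC ED 2 to 5 and GC PO 1 to 5, adjusted p up to 0.0927), with the normexp correction (0.70 ± 0.36, 0.144), and without the filter on dim probes (0.0536). With the LD arrays left out of the fit it held, at an adjusted p of 0.00537.

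ACTG2 was at 2.74, 2.45, 0.11, 1.08 and 3.17 in GC ED and at 3.31, 4.62, 3.95, 3.72 and 3.38 in GC PO. The change of 1.89 ± 0.75 missed the threshold (limma adjusted p = 0.052), and 1 of the 5 overlapping probes passed (1.97 ± 0.74, adjusted p = 0.0414). With only the ED and PO arrays in the fit it passed (adjusted p = 0.0148), as it did with median centring (0.0451), with the normexp correction (0.0307) and without GC LD 3, GC LD 5 or GC ED 5 (down to 0.0189). At PO the GC mean of 3.80 ± 0.53 and the TW mean of 3.81 ± 0.74 (SD, n = 5 each) differed by less than the spread within either.

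KCNMB1, MCAM, RGS5 and PDGFRB were measured in GC and did not pass. The ED to PO changes were 0.11 ± 0.47 for KCNMB1 (limma adjusted p = 0.865), 0.91 ± 0.78 for MCAM (0.357), 0.31 ± 0.60 for RGS5 (0.699) and 0.32 ± 0.26 for PDGFRB (0.326). MCAM in GC PO ran from −6.82 to −2.41, and RGS5 from −5.87 to −3.94, in each case below every TW array by these representative probes. By 3 of the 5 MCAM probes GC PO 2 stood above TW LD 8. Each within-slide change of CNN1, TAGLN, DES, ACTA2, ACTG2 and MCAM from GC ED to GC PO was above 0 on 5 of 5 slides. Its range was 5.55 to 9.91 for CNN1, 2.09 to 4.89 for TAGLN and 1.87 to 5.84 for DES.

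**Figure D3:**
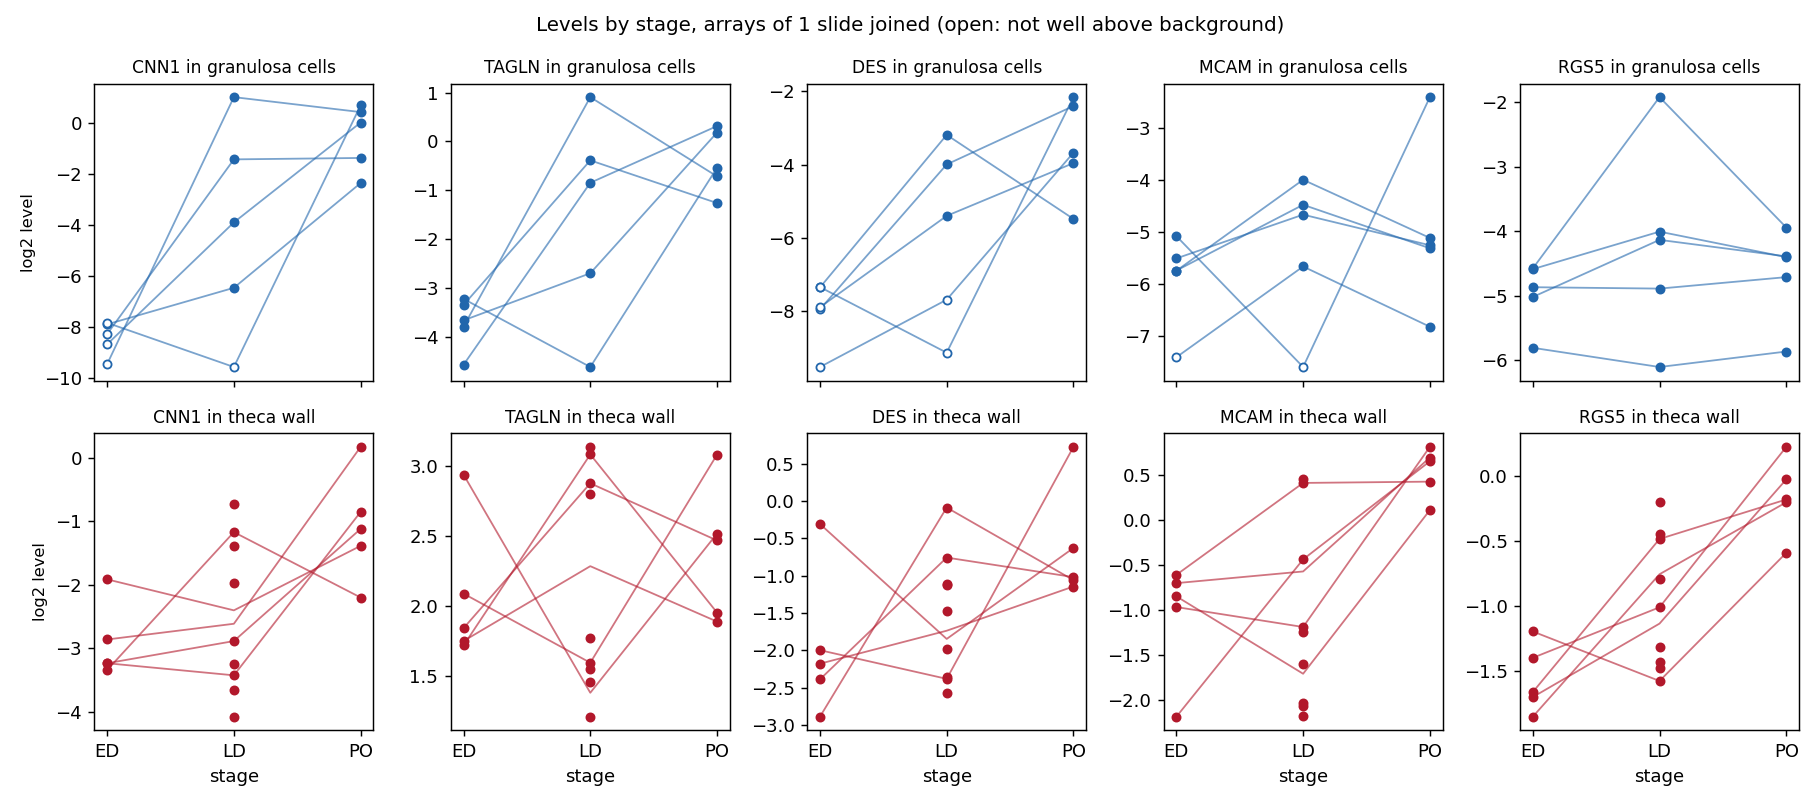
Log2 level of CNN1, TAGLN, DES, MCAM and RGS5 by stage in GC (top) and TW (bottom), with arrays of the same slide joined (2 TW LD arrays on a slide joined through their mean). Open points are not well above background. In GC, CNN1, TAGLN and DES end higher at PO than at ED on each of 5 slides, and their LD values are spread from the ED to the PO level. In TW, MCAM and RGS5 end higher at PO on each of 5 slides.

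For CNN1, TAGLN and DES the means of the late dominant GC arrays lay between those of ED and PO. Single GC LD arrays ran past both ends for CNN1 and TAGLN, and stayed within them for DES. CNN1 was at −1.42, −3.90, 1.02, −6.47 and −9.59 there, TAGLN at −0.39, −0.85, 0.91, −2.70 and −4.62, and DES at −3.99, −3.19, −5.40, −9.13 and −7.68. GC LD 4 and GC LD 5 were the lowest for these 3 genes, and GC LD 5 lay within the ED range or below it. GC LD 3 stood above every PO array for CNN1 and TAGLN. CNN1 in GC LD 5 and DES in GC LD 4 and GC LD 5 were not well above background, like both genes on every GC ED array. At the low end the order of CNN1 and DES values therefore compares signals that were not detected. No member probe was called between GC ED and GC LD (limma; 3 at an unadjusted p below 0.05) or between GC LD and GC PO (2 at an unadjusted p below 0.05). The background was 0.00307% of all probes in the first comparison and 16.9% in the second. Single arrays decided some of these: without GC LD 5, CNN1 and TAGLN passed between ED and LD (adjusted p = 0.0149 and 0.0137). Without GC LD 3, CNN1 passed between LD and PO (0.0103), and without GC LD 2 DES did (0.0411). With all 34 arrays in 1 fit CNN1 (0.0178) and TAGLN (0.0293) passed between ED and LD, and CNN1 (0.016) and DES (0.0251) between LD and PO.

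Markers of other cells were measured beside these changes. For the counts that follow, 23.5% of all probes tested in GC were called higher from ED to PO and 21.4% lower. A summed level is log2 of the sum of the genes' unlogged levels, so the brightest probes weigh most in it. Of the 12 theca stroma markers tested in GC from ED to PO, limma called 2, both lower (median change −0.23): GLI1 (−1.73 ± 0.54, adjusted p = 0.0184) and NR2F2 (−0.97 ± 0.36, 0.041). Their summed level ran from 3.99 to 5.42 over GC ED and from 3.44 to 4.81 over GC PO, against 7.32 to 7.62 in TW ED and PO. Of 17 endothelial markers 8 were measurable in GC, and 1 was called, EGFL7, which was higher (1.80 ± 0.45, adjusted p = 0.0052). The summed level of the 17 ran from −2.94 to −1.33 over the GC ED arrays and from −1.87 to −1.27 over GC PO, against 2.49 to 4.04 in TW ED and PO. PECAM1, CDH5 and VWF did not pass (0.46, −0.03 and −0.71), and KDR, TEK, CD34, ENG and TIE1 were well above background on too few GC arrays to be tested. Of 16 leukocyte markers tested 7 were higher and 2 lower, led by S100A12 (9.39 ± 1.37) and CD14 (4.60 ± 0.78). S100A12 was well above background on 2 of 5 GC ED arrays. The summed level of 17 leukocyte genes ran from −0.26 to 1.12 over GC ED and from 2.91 to 4.04 over GC PO. In GC PO the mean level was 2.39 for S100A12 and 1.08 for CD14, so these 2 genes weigh heavily in that sum. Of 12 granulosa markers 7 were lower, among them HSD17B1 (−9.15 ± 1.40), IHH (−6.31 ± 1.07) and FSHR (−3.71 ± 1.15). These 3 were well above background on 3, 1 and 4 of 5 GC PO arrays, so their fitted changes rest in part on undetected signals. The part of leukocytes in the member changes was not tested.

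The same steps were compared in the theca wall. From ED to PO, RGS5, MCAM and CNN1 rose, in 5 of 19 member probes called higher by limma, where 14.8% of 35500 probes were called higher. From LD to PO, MCAM and RGS5 rose, in 7 of 19 probes, against 9.49% of all probes. These 7 are all 5 MCAM probes and both RGS5 probes, which overlap in sequence, so as genes this is 2 of 10. None was called lower in either step (12% and 7.26% of all probes were), nor was any lower at an unadjusted p below 0.05. The median change over the 10 genes was 0.34 from ED to PO and 0.67 from LD to PO, beside 0.04 and 0.03 over all probes. Both comparisons share the TW PO arrays.

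RGS5 levels were −1.40, −1.19, −1.70, −1.85 and −1.66 in TW ED, from −1.57 to −0.20 with a median of −1.01 in the 9 TW LD arrays, and 0.22, −0.59, −0.03, −0.20 and −0.18 in TW PO. Every PO array stood above every ED array, a separation seen for 10.9% of all probes, and LD lay between and overlapped PO. RGS5 rose 2.64-fold from ED to PO (1.40 ± 0.26, limma adjusted p = 0.00141) and 1.76-fold from LD to PO (0.81 ± 0.23, 0.0236). The LD to PO call was lost without TW PO 1, TW PO 3 or TW PO 5 (adjusted p up to 0.0702), with slide as a block (0.0683), with arrays centred on their median (0.0605), with the normexp correction (0.0778) and with all 34 arrays in 1 fit (0.201), while the ED to PO call held in that fit (0.0323). The second RGS5 probe gave 1.39 ± 0.26 and 0.91 ± 0.23 for the same steps (adjusted p = 0.00147 and 0.0148).

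MCAM was at −0.61, −0.97, −0.85, −0.70 and −2.19 in TW ED, and from −2.18 to 0.45 with a median of −1.24 in TW LD. In TW PO it was at 0.43, 0.81, 0.11, 0.69 and 0.65, above all ED arrays and within a narrow range. It rose 3.04-fold from ED to PO (1.60 ± 0.48, limma adjusted p = 0.02) and 3.11-fold from LD to PO (1.64 ± 0.42, 0.0168). Of its 5 probes 2 passed from ED to PO, the others having adjusted p from 0.0519 to 0.0771. The ED to PO call was lost without TW ED 5 (0.0583), and the LD to PO call without TW PO 5 (0.0518) and with slide as a block (1.33 ± 0.41, 0.0697). With all 34 arrays in 1 fit neither MCAM step passed (0.0858 from ED and 0.0717 from LD). On each of the 5 TW slides MCAM and RGS5 were higher at PO than at ED, by 0.96 to 2.84 and by 0.60 to 1.67. Against the mean LD value of the slide the representative probes were higher by 0.01 to 2.00 for MCAM and by 0.30 to 1.23 for RGS5. On the slide with TW PO 1 and TW LD 1 the MCAM gain was only 0.01, and the other 4 MCAM probes were lower at PO than at LD there. RGS5 in TW PO 4 (−0.20) did not exceed TW LD 7 on the same slide (also −0.20).

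CNN1 was at −3.35, −3.24, −2.86, −1.92 and −3.24 in TW ED, from −4.08 to −0.73 in TW LD, and at −2.20, −0.86, 0.17, −1.39 and −1.12 in TW PO. In TW PO 4 of 5 arrays were above every ED array. The rise of 3.58-fold (1.84 ± 0.60, limma adjusted p = 0.0292) was lost without TW ED 1, TW ED 2, TW ED 5, TW PO 3 or TW PO 5 (adjusted p up to 0.0803) with the normexp correction (1.44 ± 0.49, 0.0599) and with all 34 arrays in 1 fit (0.26). It held with only the ED and PO arrays in the fit (0.00916). The LD to PO change of CNN1 was 1.43 ± 0.53 and did not pass (0.0668), and it passed without the slide with many flagged spots (1.54 ± 0.50, 0.0436).

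The remaining contractile genes did not pass in TW. From ED to PO the changes were 0.11 ± 0.46 for ACTA2, −0.18 ± 0.45 for ACTG2, 0.26 ± 0.55 for MYH11, 0.31 ± 0.40 for TAGLN and 0.03 ± 0.27 for KCNMB1 (limma adjusted p from 0.58 to 0.946). DES missed the threshold at 1.33 ± 0.52 (adjusted p = 0.0631). Without the slide with many flagged spots DES was called (1.74 ± 0.51, adjusted p = 0.0207), and TW ED 4, on that slide, had the highest ED value of all 7 contractile genes. PDGFRB changed by 0.37 ± 0.22 (0.221), above 0 on 5 of 5 slides. Between TW ED and TW LD no member was called (limma; 3 probes, of KCNMB1 and RGS5, at an unadjusted p below 0.05), where 0.0366% of all probes were.

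Endothelial and leukocyte markers moved at the same steps in TW. From LD to PO 8 of 17 endothelial markers were called, all higher (9.49% of all probes were), among them CDH5 (1.31 ± 0.33) and PECAM1 (1.25 ± 0.33). From ED to PO 7 of the 17 were called, all higher (14.8% of all probes were). Their summed level ran from 2.49 to 3.76 in TW ED, 2.08 to 3.93 in TW LD and 3.60 to 4.04 in TW PO. From ED to PO 13 of 16 leukocyte markers were higher (14.8% of all probes were). HBA2, a haemoglobin gene of red blood cells, rose by 1.91 ± 0.43 and was the only 1 called of 3 red blood cell genes tested. The theca stroma markers had 2 higher and 2 lower of 12 over the same stages (14.8% and 12% of all probes). The part of these cells in the rise of MCAM, which endothelium also makes, and of RGS5 was not tested.

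**Figure D4:**
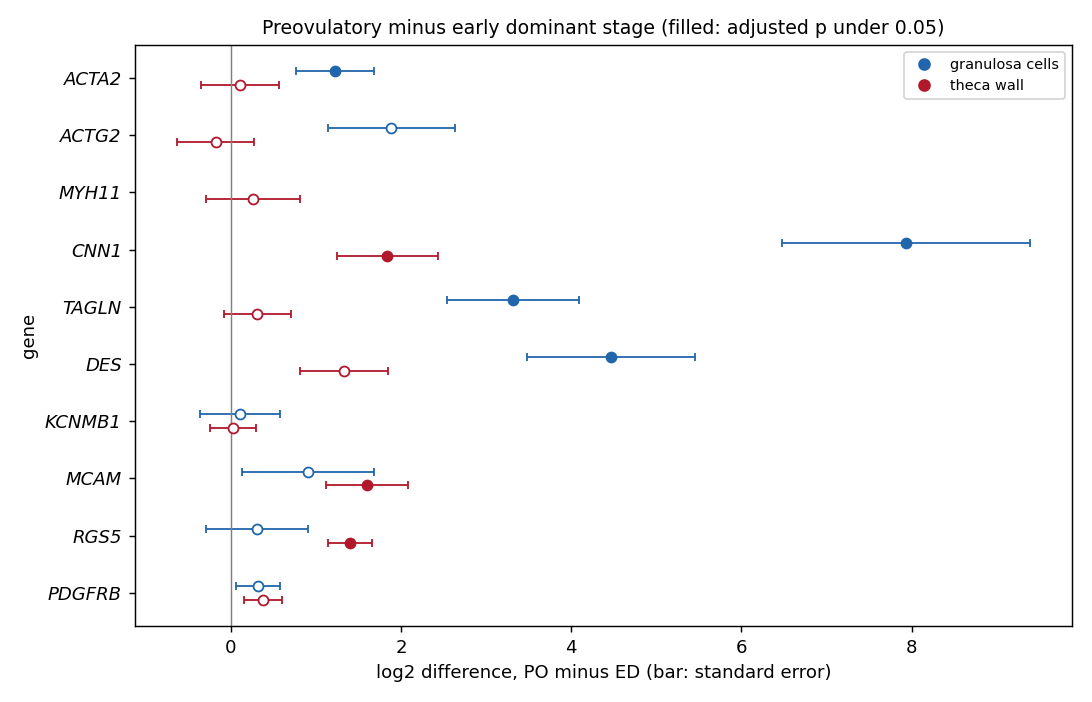
Log2 difference between the PO and ED stages for each gene in GC (blue) and TW (red), with the standard error of the fit. Filled points passed an adjusted p of 0.05, and MYH11 was not tested in GC. In GC the filled points are CNN1, DES, TAGLN and ACTA2, and in TW they are CNN1, MCAM and RGS5.

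Whether the ED to PO change differed between the layers was tested directly, as the interaction of layer and stage on all 34 arrays. In 3 of 19 probes the change was larger in GC than in TW, a share close to the 14.7% of all probes called in that direction. In none was it smaller (15.1% of all probes were), nor was any smaller at an unadjusted p below 0.05. The 3 with a larger change in GC were CNN1 (6.09 ± 1.57, limma adjusted p = 0.00443), TAGLN (3.01 ± 0.87, 0.01) and DES (3.14 ± 1.11, 0.0324). For CNN1 and DES the GC ED values lie below detection. From the bounds above, the GC change exceeded the TW change by at least 25.6-fold for CNN1 and at least 4.49-fold for DES. These figures make no allowance for error, and the normexp difference was smaller for CNN1 and of the opposite sign for DES. With the normexp correction none of the 3 genes was called: CNN1 was at 1.54 ± 0.94 (0.288), TAGLN at 1.76 ± 0.71 (0.0832) and DES at −0.37 ± 0.65 (0.748). DES also missed the threshold with the authors' deposited values (0.89 ± 0.77, adjusted p = 0.418), without the heavily flagged slide (2.73, 0.089), and without any of 7 single arrays (adjusted p up to 0.065). For RGS5 (−1.09 ± 0.64, adjusted p = 0.203) and MCAM (−0.69 ± 0.92, 0.602) a difference between the layers was not shown, although each passed in TW and not in GC. With the normexp correction the RGS5 change was smaller in GC than in TW (−1.39 ± 0.42, adjusted p = 0.0191).

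Within the theca wall the contractile genes varied together from array to array. Over the 19 TW arrays the 21 pairs among the 7 contractile genes had Pearson correlations from 0.41 to 0.84 (median 0.65), the closest being ACTA2 with ACTG2. The 3 pairs of pericyte genes had 0.21 to 0.41, and the 21 pairs between the sets −0.33 to 0.64 (median 0.27). These arrays share stages and slides, so the values are descriptions. TW ED 4 had the highest mean standardized contractile level (1.53), followed by TW LD 1 (1.16), and TW LD 7 the lowest (−1.38), so arrays of 1 stage covered most of the range. By the mean of MCAM, RGS5 and PDGFRB, 4 of the 5 PO arrays stood above all ED and LD arrays, at 0.74 to 1.29, and TW PO 3 at 0.56 was below TW LD 6 at 0.61.

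**Figure D5:**
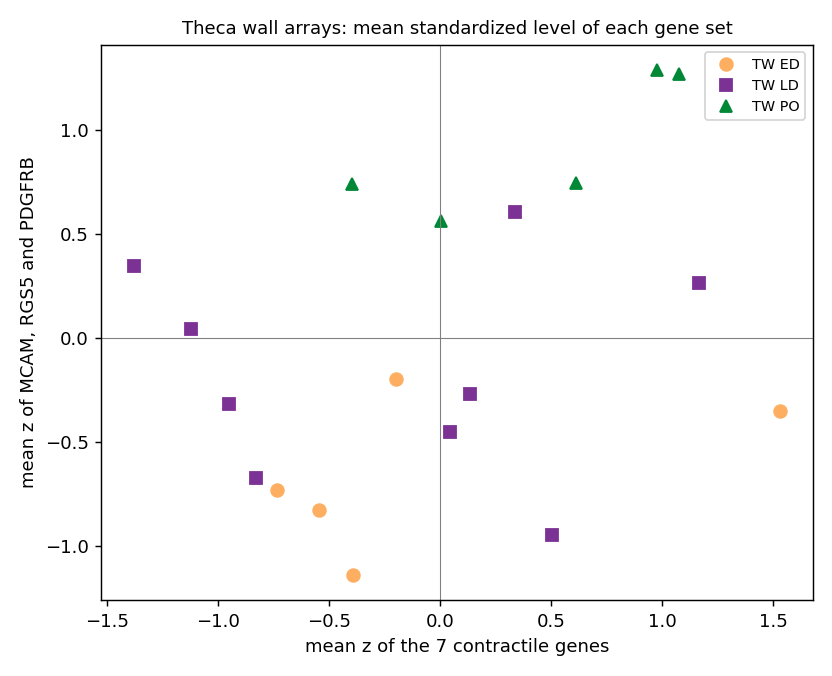
Each of the 19 TW arrays by its mean standardized level (z, the level minus the mean over TW arrays, divided by the SD) of the 7 contractile genes (horizontal) and of MCAM, RGS5 and PDGFRB (vertical). The stages overlap along the horizontal axis, from −1.38 to 1.53, and the PO arrays lie at 0.56 to 1.29 on the vertical axis.

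Of 9551 other named genes measured in TW, those whose levels followed the mean contractile level most closely over the 19 arrays were ARIH2 (r = 0.895), ACTN1 (0.878), RHOD (0.86), PLP2 (0.859), MYL9 (0.854), TGFB1I1 (0.854), LMNA (0.852) and ARL2BP (0.851). ACTN1 encodes an actin-crosslinking alpha-actinin, and MYL9 the regulatory light chain of smooth muscle myosin. For the pericyte mean they were SLC19A1 (0.929), a folate carrier, COL6A1 (0.915), a type VI collagen chain, SNN (0.889), FOSL2 (0.888) and GRN (0.885).

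Other genes of the contractile machinery were called in GC about as often as all probes. Of 40 listed genes beyond the members, 35 had a probe and 32 could be tested in GC. From ED to PO 8 rose and 6 fell, where 23.5% and 21.4% of all probes did (median change 0.21, beside 0.09 over all probes). SYNPO2, an actin-bundling protein of the muscle Z-disc, rose by 4.38 ± 0.96 (limma adjusted p = 0.00227; 1 of 5 ED arrays was well above background), and ACTN1 by 2.43 ± 0.73 (0.0148). The LIM-domain genes CSRP2 (−4.58 ± 0.85, adjusted p = 8.38e-04) and FHL2 (−3.60 ± 0.83, 0.00307) fell. In TW 5 of 35 rose and 1 fell (14.8% and 12% of all probes), with PDLIM3 (2.19 ± 0.59, adjusted p = 0.0118), PDLIM5 (1.41 ± 0.23, 8.1e-04) and CSRP1 (1.36 ± 0.29, 0.00296) higher and FHL2 lower (−1.36 ± 0.48, 0.0417). PDLIM3 was well above background on 2 of 5 TW ED arrays. Between the layers 16, 16 and 21 of 35 were lower in GC at ED, LD and PO (21%, 19.8% and 28.2% of all probes), among them CALD1, the actin-binding caldesmon (−3.91 ± 0.34, −3.14 ± 0.30 and −4.50 ± 0.34), and 1, 2 and 1 were higher. The interaction was called larger in GC for 7 and smaller for 5 (14.7% and 15.1% of all probes), with SYNPO2 (3.75 ± 1.04, adjusted p = 0.00784) and CSRP2 (−4.48 ± 0.86, 4.06e-04) at the ends.

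Of 16 transcription regulators of smooth muscle, MYOCD (myocardin), the coactivator that drives the contractile genes, was not well above background on any GC array at any stage and was at least 2.35-fold lower in GC than in TW at ED (limma adjusted p = 3.53e-05). It was at least 1.47-fold lower at LD and at least 2.59-fold lower at PO. In GC from ED to PO, where 23.5% of all probes rose and 21.4% fell, 2 of 11 tested rose, MEF2D (1.15 ± 0.28, adjusted p = 0.00413) and KLF4 (0.90 ± 0.34, 0.0399), and 3 fell, among them MEF2A (−1.21 ± 0.23, 0.00103) and MEF2C (−1.41 ± 0.47, 0.0253). In TW 3 of 13 rose over the same stages (14.8% of all probes), KLF4 (0.99 ± 0.21), TEAD1 (0.94 ± 0.20) and MEF2D (0.90 ± 0.26; adjusted p from 0.00307 to 0.0158), and none fell. TCF21, a stromal regulator, was 97.9-fold, 121-fold and 196-fold lower in GC, and GATA6 was higher in GC, by 2.86 ± 0.38, 3.11 ± 0.34 and 2.56 ± 0.38.

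Among 32 channels and receptors of smooth muscle, 6 of 23 tested rose in GC from ED to PO and 5 fell, shares close to the 23.5% and 21.4% of all probes. In TW 8 of 29 rose and 1 fell (14.8% and 12% of all probes). RGS2, which damps G-protein signals like RGS5, rose in both layers, by 7.10 ± 0.95 in GC (limma adjusted p = 2.04e-04) and 4.92 ± 0.57 in TW (3.03e-04). PRKG1, the cyclic GMP-dependent kinase that relaxes smooth muscle, rose in GC (5.24 ± 0.80, adjusted p = 2.97e-04; 1 of 5 ED arrays well above background), and its change was larger there than in TW (5.32 ± 0.84, 6.22e-05). The endothelin receptor gene EDNRB was not well above background in GC ED and was at least 4.08-fold higher in GC PO (adjusted p = 0.00364). RYR2, an intracellular calcium channel, fell in GC (−4.38 ± 0.77, 5.97e-04). In TW the calcium-permeable channel TRPC6 (2.82 ± 0.50, adjusted p = 0.00113), the prostaglandin F receptor PTGFR (2.78 ± 0.68, 0.00659) and the calcium channel subunit CACNB2 (2.33 ± 0.44, 0.00164) rose.

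Of 20 further pericyte markers, 18 had a probe, and 4 were called in TW from ED to PO, all higher (14.8% of all probes were): THY1 (2.25 ± 0.59), S1PR3 (2.17 ± 0.69), ABCC9 (1.87 ± 0.45) and GJA4 (1.55 ± 0.40; limma adjusted p from 0.00612 to 0.0275). The median change was 0.55. THY1 is also made by fibroblasts and GJA4 by arterial endothelium. In GC 12 could be tested (23.5% of all probes rose and 21.4% fell). Of these 2 rose, ANGPT1 (4.60 ± 1.03, adjusted p = 0.00258) and HEYL (0.98 ± 0.38, 0.0478), each well above background on 1 of 5 ED arrays. HEYL was well above background on 3 of 5 PO arrays. The 2 that fell were KCNJ8 (−3.55 ± 0.92, 0.0065), well above background on 3 of 5 PO arrays, and COX4I2 (−2.66 ± 0.56, 0.00172). At ED, 13 of 18 were lower in GC and 1 was higher (21% and 14.4% of all probes). Among the lower were EBF1 (at least 56.5-fold), HIGD1B (at least 85.4-fold) and CD248 (at least 10.2-fold), none of which was well above background in GC ED. The summed level of the 18 went the other way, from 2.57 to 3.35 over GC ED and from 1.49 to 2.31 over TW ED. COX4I2, with a mean level of 2.83 in GC ED, weighs heavily in that sum.

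Of the ligands and receptors that act on mural cells, 9 of 23 rose and 2 fell in TW from ED to PO (14.8% and 12% of all probes), and 8 of 19 rose and 3 fell in GC (23.5% and 21.4%). In TW S1PR1 (2.78 ± 0.55, limma adjusted p = 0.00203), PDGFB, the ligand of PDGFRB (1.79 ± 0.56, 0.0252; 1 of 5 ED arrays well above background), and ANGPT2 (1.74 ± 0.50, 0.0161) were higher. In GC ANGPT2 (5.47 ± 1.11, adjusted p = 0.00144), TGFB2 (5.12 ± 1.04, 0.00139) and TGFB3 (3.92 ± 0.78, 0.00124) rose, the last 2 encoding TGF-beta ligands. TGFB3 was well above background on 1 of 5 GC ED arrays.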

How the data were processed

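RNA of 15 granulosa and 19 theca wall samples was hybridised to single-colour (Cy3) Agilent arrays, 1 array per sample. Per the file headers, spots were quantified with Agilent Feature Extraction. The deposited scanner files hold each spot's signal intensity (mean, background and background-subtracted processed signal), and the deposited value table holds log2 values, which follow the quantile-normalized log2 mean signal (lowest correlation 0.999995) and served as an alternative. Per the labels' protocols, 500 ng of RNA (integrity number above 7.0) was amplified from an oligo(dT) primer, which favours the 3′ ends of transcripts. Levels are log2 of the processed intensity minus the array's 75th percentile. Outlier-flagged spots were left out, spots of a probe averaged, and probes kept if well above background on 5 or more of the arrays fitted. Group means were fitted with limma 3.58.1 in R 4.3.3: stages within the 19 TW or the 15 GC arrays, layers and interaction on all 34. P-values were adjusted over all probes (Benjamini-Hochberg, threshold 0.05). The fit was run on simulated data with independent noise, without slide effects or a limit of detection, so these were not covered. Of 43603 probes 20816 carried no gene name. All members and their probes are described. From each other list up to 4 called genes with the largest change were eligible to be named, and the 8 and 5 genes most like the contractile and pericyte means. The members and lists were chosen with earlier results of these data known. Alternatives were other scalings, background corrections and filters, slide as a block, 1 probe per gene, and leaving out arrays. The number of arrays limits the precision.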

Additional observations from a re-analysis of the deposited data

Results flagged for a closer look

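The ED to PO change was larger in GC than in TW for 3 members, by a test of the difference itself: 6.09 for CNN1, 3.01 for TAGLN and 3.14 for DES on the log2 scale. These are 3 of 19 probes, a share close to the 14.7% of all probes called in that direction. The CNN1 and DES values in GC ED lie below detection, so their differences are bounded only. The bounds were at least 4.68 and at least 2.17, with no allowance for error. With the normexp correction the difference was smaller for CNN1 and of the opposite sign for DES. None of the 3 calls held with the normexp correction.

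Of 60 sets of values (10 genes in 6 groups), 6 held an array far from the others, where chance gives about 1 in 20. The gap to the nearest other array, as a share of the group's range, was 0.825 for MYH11 in TW ED, where TW ED 4 stood at −3.24 and the others between −6.14 and −5.63. It was 0.721 for DES in GC ED (GC ED 5 at −9.52, others from −7.95 to −7.34), where no array was well above background, so the gap lies between signals that were not detected. For DES in TW PO it was 0.724, with TW PO 2 at 0.73 above the others, which lay between −1.15 and −0.63. MCAM had 0.714 in GC ED, where GC ED 5 stood at −7.40, not well above background, and the others from −5.74 to −5.08, and 0.773 in TW ED, where TW ED 5 was at −2.19 and the others from −0.97 to −0.61. For PDGFRB in GC LD it was 0.854, with GC LD 5 at −4.04 under the range of −3.44 to −3.34.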

How the results depend on the processing

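Across scalings, filters, slide blocks and left-out arrays, the counts of member probes lower in GC at LD and PO stayed within 1.5 times of 13. At ED the count was 10 with slide as a fixed block, against 18. From TW LD to TW PO the 7 probes became 4 with normexp, 1 with the fixed slide block and 0 with all 34 arrays in 1 fit. From TW ED to TW PO the 5 became 8 with the deposited values, 9 without the heavily flagged slide, 1 with all 34 arrays in 1 fit and 8 with only ED and PO arrays (chosen after seeing the data). From GC ED to GC PO the 5 became 3 without the filter, 9 with all 34 arrays in 1 fit and 9 with only ED and PO arrays. With all 34 arrays in 1 fit, 2 probes were called in each of the other GC steps, and the interaction's 3 became 8 with median centring. Leaving out 1 array gave 16 to 19, 13 to 19 and 12 to 13 probes between layers at ED, LD and PO. It gave 0 to 2, 0 to 1 and 3 to 9 for GC LD-ED, PO-LD and PO-ED, 0 in every fit for TW LD-ED, 1 to 9 for TW PO-LD, 2 to 9 for TW PO-ED and 2 to 8 for the interaction. The TW PO-LD count was 1 without TW PO 5, the TW PO-ED count 2 without TW ED 5 and 9 without TW ED 4, and the interaction count 8 without GC LD 3. Sign changes of called genes were MYH11 at ED between layers (0.16 with normexp), PDGFRB at PO (0.11 with quantile normalization, 0.20 with median centring, 0.11 in the deposited table) and the DES interaction (−0.37 with normexp); the cause was not tested. Median centring moved the median of all probes between layers by 0.50, 0.46 and 0.78 at ED, LD and PO. Replicate numbers follow accession order and pair no samples, so no fit was blocked on them; slides, which hold the 3 stages of a layer, were used as the block instead. With slide as a random block (correlation 0.05 to 0.07) 7, 6 and 6 probes were called for TW PO-LD, TW PO-ED and GC PO-ED.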
